A study of Sus scrofa with 36 samples.

Results

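The response of the liver to heat was measured within the Creole breed, a local pig breed of the Caribbean, as heat stress (HS) minus thermoneutrality (TN). The samples were chosen by their labels alone, the arrays titled as Creole liver, which gave 12 of the 36 arrays of the series, 6 in each group. All 12 animals were growing castrated males of the Creole breed (CR), 1 animal per array. What was hybridised was RNA of frozen liver tissue, unsorted by cell type and taken from the left lobe according to the methods. The 6 CR TN animals were kept at 24 °C. The 6 CR HS animals are labelled 30 °C, whereas the growth protocol gives 32 °C for 5 days. The other 24 arrays hold 12 Large White (LW, a European breed) and 12 F1 (LW and CR cross) pigs, again 6 TN and 6 HS each, which were used to estimate the spread and for the comparison between breeds. The methods place the slaughter of HS pigs after that of TN pigs, so within the breed heat, age and day of slaughter cannot be told apart. The methods also slaughter each pen at a single temperature, so pen cannot be told apart from heat either. Animals of a breed were blocks of littermates spread over its pens, so they are not fully independent. Litter, pen and parents of each animal are not in the labels.

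The liver of a growing pig makes most plasma proteins, exports lipid, oxidises fatty acids, clears hormones and stores iron, and its metabolism follows feed intake and thyroid hormone, both of which usually decline in the heat. Hepatocytes of growing animals still divide, and dividing cells carry transcripts for cyclins, mitotic kinases, spindle motors and replication factors that are nearly absent from resting cells. Heat shock proteins are chaperones that keep other proteins folded and are induced within hours of an acute heat shock.

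RNA was hybridised to 1-colour Agilent pig arrays with 60-base probes. Values below are log2 of the median spot signal, quantile normalized over the 36 arrays, so that a difference of 1 is a doubling of signal. Differences are HS minus TN unless another order is given. On the 12 CR arrays, 40818 to 43640 of 60306 non-control spots were well above background and none was saturated. Over all kept probes, CR HS replicates 5 and 6, both on slide 5, had the lowest mean correlations with their own group (0.989 and 0.988). CR HS replicate 2 was the HS array most like TN. Its mean correlation with the 6 TN arrays (0.992) was above that with the other HS arrays (0.990), by more than for any other HS array. Its closest array was CR TN replicate 1 (0.994), which lay on the same slide. Calls that turn on CR HS replicate 2 are given with and without it. As it was singled out by its likeness to TN, leaving it out tends to enlarge the differences. Calls made without it show only how the count depends on 1 animal and are no separate evidence. The first 3 principal components of the 12 arrays held 20.2%, 14.1% and 12.1% of the variance, and none separated the groups (exact permutation test, two-sided, p between 0.102 and 0.403, with 0.00216 the smallest possible p, and adjusted p between 0.407 and 0.537 over 4 array measures). On the first component CR HS replicates 5 and 6 scored highest (43.5 and 41.0), and the highest TN array was at 20.1.

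The marker genes of hepatocytes were bright in all 12 livers. All 11 measured hepatocyte markers were well above background on every CR array, with a mean log2 signal of 15.83 to 16.01 per animal in TN and 15.83 to 16.02 in HS. Of the 83 kept markers over 10 cell types, 1 had an unadjusted p under 0.05, LEP (leptin) in the adipocyte and muscle list, higher in HS by 0.45. For macrophages, 9 of 10 markers were lower in HS, with list means of 11.49 to 11.88 in TN and 11.48 to 11.80 in HS, and none had an unadjusted p under 0.05. For endothelial cells 7 of 8 were lower, with means of 9.39 to 9.73 in TN and 9.22 to 9.60 in HS. For stellate cells and fibroblasts the means were 10.17 to 10.56 in TN and 9.95 to 10.56 in HS. Their part in the results below was not tested. In a bulk sample, fewer cells of a type and less RNA per cell cannot be told apart.

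The probes behind the lead genes are shown by their first 30 of 60 bases, read from the scanner tables, because each of these genes is represented by the probe printed here. The set begins with cell division genes.

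CCNB1, A_72_P260897: gccaaggctgtggcaaaggtgtaacttgtg
KIF23, O13382: gctgctattgattagctgcaagaatgcact
CCNF, A_72_P141711: gtctgtaagaacatccctctgcactgaatt
AURKA, A_72_P073831: tcttttaaatgtcagagactttggtacgga
TPX2, O12032: cagttgccctttaatatgggtcttaactct
CDK1, A_72_P440916: gcgaatttctggcaaaatggcactgaatca
THRA, O11594: tgagtctgtctcccaagctagactgtgtct
DIO1, A_72_P336168: cggctgtgacttgatttgaaaggaaatgtt

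A second pair shows why probes of 1 gene are not separate evidence. Both are probes of ELOVL2, and the capitals mark the 27 bases they share within the 30 shown (57 of 60 over the whole probes).

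ELOVL2, A_72_P297886: cagGGAGGCAGGAGAAGCCATTTTTCTTTG
ELOVL2, A_72_P571639: GGAGGCAGGAGAAGCCATTTTTCTTTGtag

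The 8 kept ELOVL2 probes therefore lay on 6 separate targets, where probes sharing a run of 20 bases or more count as 1 target. The probes whose names begin with O carry gene names given by the array's design, mostly by likeness to human genes, and 25 of the 93 genes named by rule rest on such a probe, KIF23, TPX2 and THRA among them. Of the O probes that share 25 bases with an A_72 probe, 6.71% lie on the opposite strand, so a name on an O probe alone is less certain.

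No single probe passed the threshold within CR. Of 44796 probes tested, 0 had an adjusted p under 0.05 (0%), and the smallest adjusted p was 0.0517, shared by 7 probes. Without adjustment, 3314 probes had a p under 0.05 (7.40%), 1584 higher in HS (3.54%) and 1730 lower (3.86%), and over 11210 gene symbols, each represented by its brightest probe, there were 366 higher (3.26%) and 535 lower (4.77%). The median size among these probes was 0.26 for those higher and -0.28 for those lower. At an adjusted p under 0.1 there were 62 probes, 53 of them lower in HS. Groups that did not overlap, with all 6 HS animals on one side of all 6 TN animals, were found for 16 symbols higher (0.143%) and 30 lower (0.268%). The tests are limma's moderated tests with Benjamini-Hochberg adjustment. On simulated arrays with the same groups, 60.5% of 200 probes shifted by 0.5 were recovered and 90.0% of those shifted by 1. False calls were 7 of 128 and 12 of 192. The noise was drawn independently for each probe and animal, without shared litters, pens or slides. These shares therefore do not show which differences could be found in the real animals.

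The count of 0 depends on single animals. Without CR HS replicate 2, 113 probes passed (0.252%), 98 lower (0.219%) and 15 higher in HS, and all 113 had an unadjusted p under 0.05 with every array in. Without CR TN replicate 4 there were 46 probes, 40 of them among the 113, and without the arrays of slide 3 there were 42, 39 of them among the 113. Leaving out any other CR animal gave 0 to 6.

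Genes of cell division had lower signal in heat-stressed Creole livers, none of them past the adjusted threshold. Of 27 measured genes in the cell cycle list, 24 were lower in HS and 18 had an unadjusted p under 0.05, all 18 lower (66.7%, against 4.77% of all symbols), with a list median of -0.45 (all symbols: -0.01). None of the 27 passed the adjusted threshold with all arrays, and without CR HS replicate 2 the list median was -0.53 and 12 of the 27 passed. The list was written with earlier results of these data known, so the share of 66.7% is no independent test. The plot of difference against p shows where the list lies among all symbols.

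**Figure D1:**
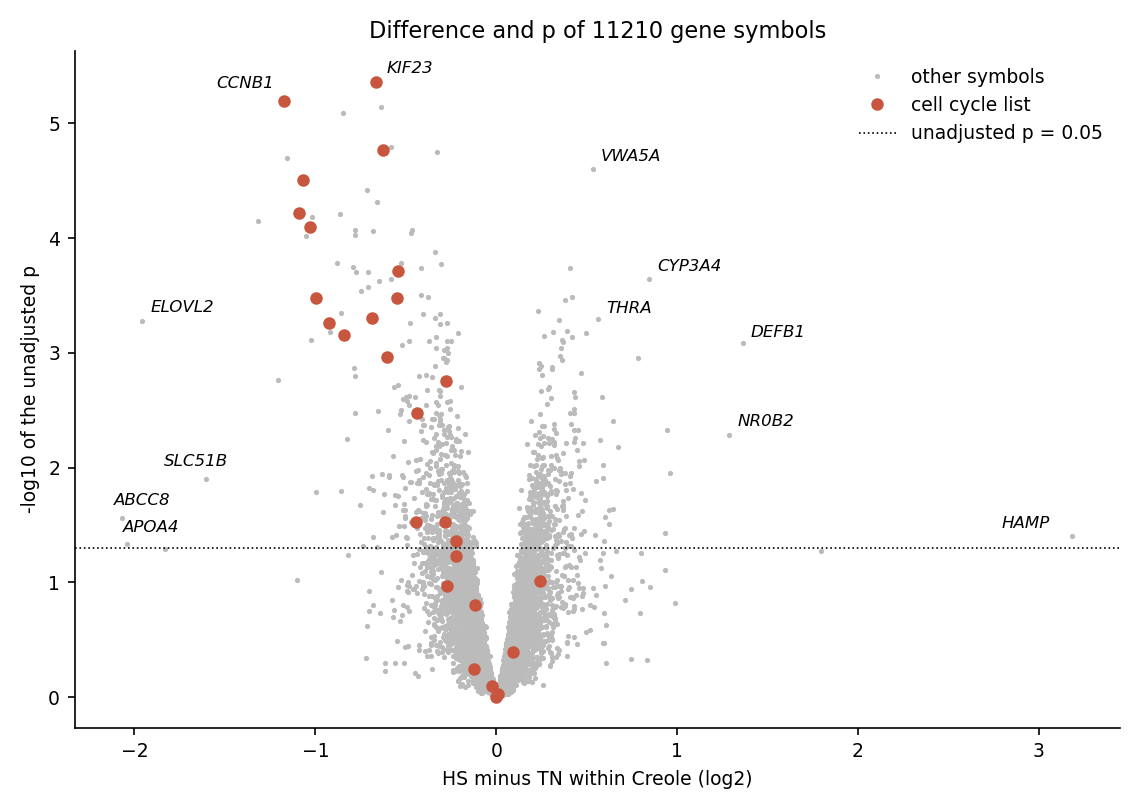
Each point is 1 of 11210 gene symbols, with HS minus TN within Creole liver (log2) on the horizontal axis and -log10 of the unadjusted p on the vertical axis. Red points are the 27 measured genes of the cell cycle list, of which 18 lie above the dotted line on the lower side and none on the higher side.

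Cyclins and their kinase were on both sides of the unadjusted limit. CCNB1 (cyclin B1, which drives entry into mitosis; chromosome 16, 47338239 to 47348385, assembly Sscrofa11.1) ranged from 7.82 to 8.73 (median 8.23) in TN and from 6.30 to 7.85 (median 7.14) in HS. One HS animal, replicate 2 at 7.85, overlapped the lower end of TN, and the other 5 lay below every TN animal. Its means were 8.19 ± 0.34 (TN) and 7.01 ± 0.58 (HS; SD, n = 6), a difference of -1.17 ± 0.22 (SE), or 2.25-fold lower in HS (limma adjusted p = 0.0517; exact permutation test, two-sided, p = 0.00649). Without HS replicate 2 the difference was -1.34 (adjusted p = 0.00306). CCNF, a cyclin that acts in a ubiquitin ligase, ranged from 7.72 to 8.37 (median 8.07) in TN and from 6.75 to 7.86 (median 7.15) in HS, with 5 of 6 HS animals below all TN animals and a difference of -0.85 ± 0.16 (SE) (adjusted p = 0.0517). For CDK1, the kinase partner of cyclin B1, the difference was -1.03, and for CCNB2 -0.54. CCND1 (cyclin D1, an entry factor of the cycle; 0.09), CCNE1 (-0.12) and CCNB3 (-0.00105) had unadjusted p above 0.05.

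The spindle and its kinases were next. KIF23, a kinesin motor of the midzone that cells need to split (chromosome 1, 167239973 to 167281250), ranged from 6.14 to 6.57 (median 6.45) in TN and from 5.51 to 6.12 (median 5.72) in HS, and the groups did not overlap. The difference was -0.66 ± 0.12 (SE) (adjusted p = 0.0517; exact permutation p = 0.00216, two-sided). KIF23 was picked by its small p in the same animals, so its unadjusted permutation p is no separate support. AURKA (Aurora kinase A, which builds the spindle poles) ranged from 7.603 to 8.35 (median 7.94) in TN and from 6.95 to 7.71 (median 7.28) in HS, a difference of -0.63 ± 0.13 (SE). Of the 3 AURKA probes, 2 were lower with an unadjusted p under 0.05 and 1 was unchanged (0.008). TPX2, which activates and targets AURKA, ranged from 8.25 to 9.44 (median 8.74) in TN and from 7.06 to 8.71 (median 7.76) in HS, a difference of -1.07 ± 0.22 (SE). In both genes 5 of 6 HS animals lay below every TN animal. PLK1, BUB1, NUSAP1, CENPF, PRC1, UBE2C and BIRC5, all of mitosis, differed by -0.28, -0.55, -0.69, -0.92, -0.29, -0.84 and -0.45, each with an unadjusted p under 0.05. ANLN (-0.22), AURKB (-0.03), KIF11 (0.01), CDC20 (-0.12) and MKI67 (0.24) had unadjusted p above 0.05. Some of these probes were dim in HS: CCNB2 was well above background on 4 of 6 HS arrays, PRC1 on 3 and ANLN on 2.

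**Figure D2:**
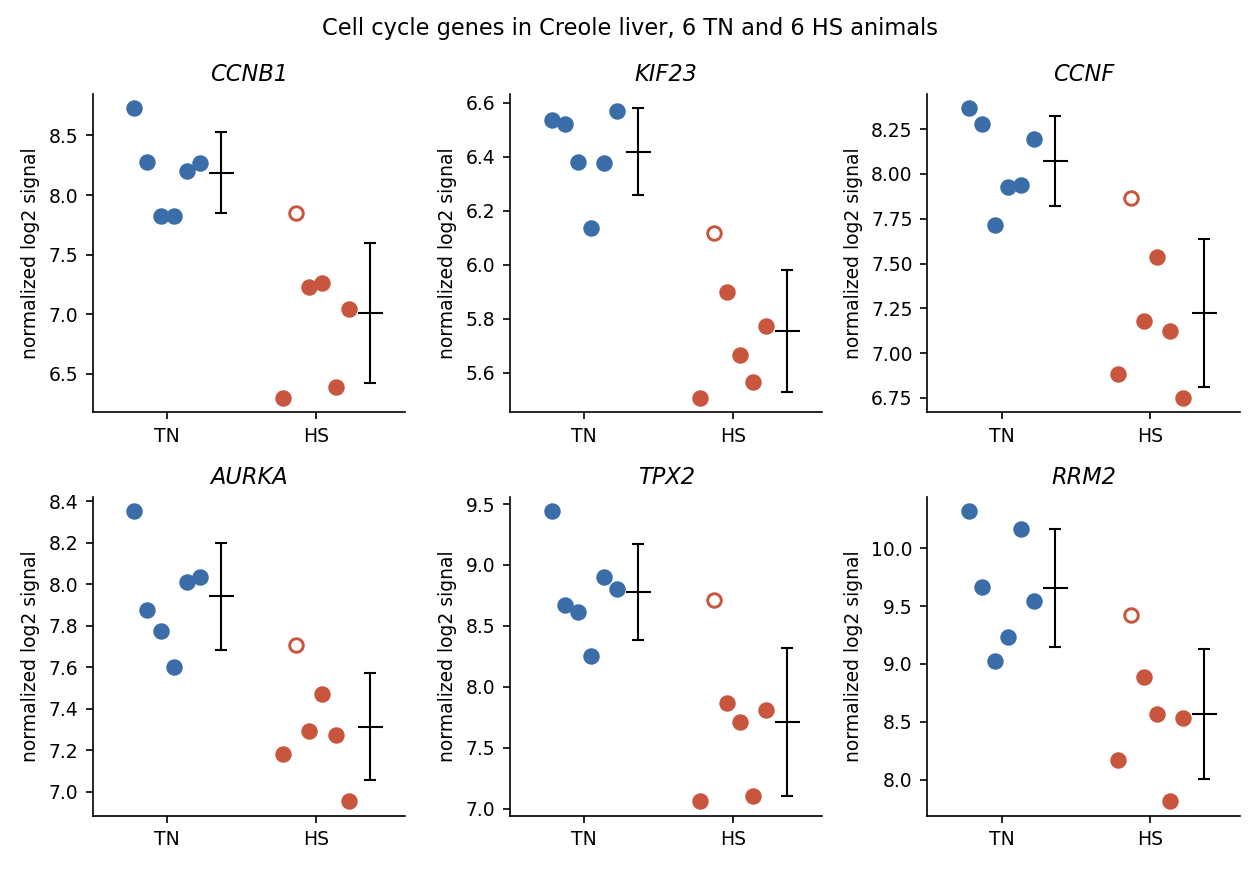
Normalized log2 signal of 6 cell division genes in the 6 TN (blue) and 6 HS (red) Creole animals, 1 point per animal, with the mean and SD beside each group. CR HS replicate 2, drawn as an open circle, is the highest HS animal in all 6 genes, and the KIF23 groups do not overlap.

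Genes of DNA replication had the same sign. RRM2, the small subunit of the enzyme that makes deoxynucleotides, ranged from 9.02 to 10.32 (median 9.61) in TN and from 7.81 to 9.43 (median 8.55) in HS, with 5 of 6 HS animals below all TN animals and a difference of -1.09 ± 0.24 (SE) (adjusted p = 0.0787). TOP2A, which untangles chromosomes, differed by -0.995, and the replicative helicase subunits MCM2, MCM3 and MCM6 by -0.61, -0.44 and -0.27, the last with an unadjusted p of 0.108. PCNA, the sliding clamp of DNA polymerase, differed by -0.22.

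Outside that list, the lower side of the ranking by p held further genes of the same kind. Among the 12 symbols with the smallest p that were lower in HS, CCNF, PTTG1, ARHGAP11A and STIL were not list members but also act in dividing cells. PTTG1 (securin, which holds in check the enzyme that separates sister chromatids) ranged from 8.19 to 8.97 (median 8.67) in TN and from 6.75 to 8.31 (median 7.57) in HS, and both of its probes had an unadjusted p under 0.05. ARHGAP11A, which acts in cell division, ranged from 8.04 to 8.53 (median 8.21) in TN and from 7.16 to 8.02 (median 7.50) in HS, and its groups did not overlap. STIL, needed to copy centrioles, differed by -0.66 ± 0.14 (SE). PBK, a mitotic kinase, was among the 5 largest lower differences at -1.32 ± 0.29 (SE), with 4 of 4 probes at an unadjusted p under 0.05. As these names were placed by their p or size, they are no separate test of the list. Without CR HS replicate 2, the adjusted p was 0.00444 for KIF23, 0.00306 for CCNF, 0.00564 for AURKA, 0.00416 for TPX2, 0.00842 for RRM2, 0.00444 for PTTG1, 0.00842 for ARHGAP11A, 0.0112 for STIL and 0.00955 for PBK (limma), all past the threshold that none passed with every array. The animal left out is the HS animal most like TN, so these values measure the dependence on it and are no separate support.

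By animal, the mean of the 27 genes relative to the TN mean was -0.77, -0.03, -0.37, -0.42, -0.75 and -0.52 for HS replicates 1 to 6. The TN animals ran from -0.26 (replicate 4) to 0.34 (replicate 1). HS replicate 2 thus sat among the TN animals, and the other 5 HS animals lay below all TN animals. Within the 4 slides that held both groups the list median was -0.24, -0.19, -0.44 and -0.61, and with slide as a fixed block it was -0.41. Under all 32 alternative settings the median stayed below 0, from -0.80 to -0.33.

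In the other breeds the cell cycle list median was -0.04 (LW) and -0.26 (F1). The difference between the CR response and the mean of the LW and F1 responses was tested for every probe, and 0 of 44796 passed (0%; limma, smallest adjusted p = 0.9998), with 1700 at an unadjusted p under 0.05 (3.79%), of which 975 were more negative in CR (2.18%). Of the 27 list genes, 15 had an unadjusted p under 0.05 for that difference (all symbols: 3.87%), 14 of them more negative in CR (all symbols: 2.51%). For CCNB1 the difference of responses was -0.94 ± 0.27 (SE), with -0.03 in LW and -0.43 in F1. Because none passed the adjusted threshold, the response of Creole cell division genes is not shown to differ from that of the other breeds.

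**Figure D3:**
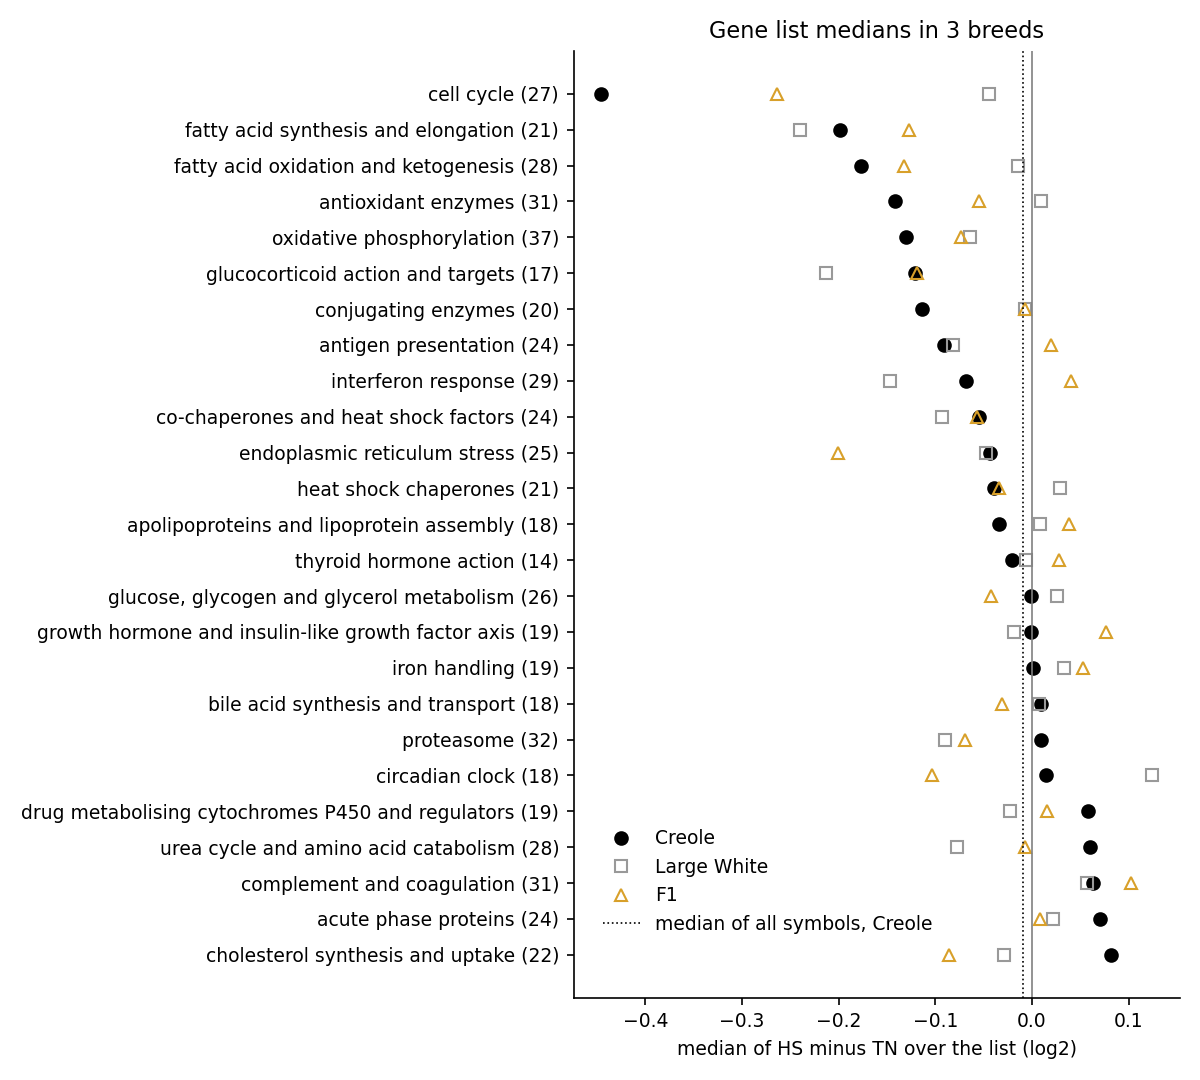
Median of HS minus TN (log2) over each of 25 gene lists, with the number of measured genes in parentheses, for Creole (filled circles), Large White (squares) and F1 (triangles). The Creole cell cycle median of -0.45 is the lowest value on the plot.

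Genes of fatty acid synthesis and breakdown were mostly lower in heat-stressed Creole livers. In the fatty acid synthesis and elongation list 17 of 21 genes were lower, 3 of them with an unadjusted p under 0.05 (14.3%, against 4.77% of all symbols), and the median was -0.20. ELOVL2, an elongase of very long polyunsaturated fatty acids (chromosome 7, 7651707 to 7732353), ranged from 8.48 to 9.95 (median 9.20) in TN and from 6.68 to 7.83 (median 7.42) in HS. The groups did not overlap, and all 8 probes were lower in HS with an unadjusted p under 0.05. The difference was -1.96 ± 0.51 (SE), or 3.89-fold lower in HS (limma adjusted p = 0.159; exact permutation p = 0.00216, two-sided), and the difference in the other breeds was -0.48 (LW) and -1.73 (F1). FADS2, the desaturase of the same pathway, differed by -0.53 ± 0.17 (SE), and ME1, which supplies NADPH to lipogenesis, by -0.49 ± 0.24 (SE).

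For fatty acid breakdown, 24 of 28 genes of the oxidation and ketogenesis list were lower in HS, 7 with an unadjusted p under 0.05 (against 4.77% of all symbols), with a median of -0.18. ETFB, a subunit of the flavoprotein that passes electrons from acyl-CoA dehydrogenases onward, ranged from 15.64 to 16.09 (median 15.69) in TN and from 15.21 to 15.54 (median 15.48) in HS, and the groups did not overlap (-0.33 ± 0.09 (SE); adjusted p = 0.196). ACADVL, the dehydrogenase of very long chains, differed by -0.31 ± 0.09 (SE), ETFDH by -0.20 ± 0.08 (SE) and HADHA by -0.26 ± 0.11 (SE). The other 3 were ETFA (-0.23), ECI1 (-0.29) and ANGPTL4 (-0.66), the last an inhibitor of lipoprotein lipase that fasting induces. The oxidative phosphorylation list showed small differences in 1 direction, with 34 of 37 genes lower, 6 at an unadjusted p under 0.05 (16.2%) and a median of -0.13. These were COX4I1 (-0.19), COX6C (-0.16), COX5B (-0.17), NDUFV2 (-0.17) and the mitochondrially encoded ND3 (-0.27) and ATP8 (-0.33). Within slides the oxidation list median was -0.24, -0.15, 0.01 and -0.24, and that of oxidative phosphorylation was -0.18, -0.08, 0.01 and -0.21, so slide 4 did not share the direction in either. The fatty acid synthesis median was -0.12, -0.17, 0.24 and -0.40, with 7 of 21 genes lower on slide 4. Apart from these values within single slides, the medians of these 3 lists kept their sign under all 32 alternative settings.

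Lipid export included 1 gene with a wide spread. APOA4, an apolipoprotein of triglyceride export, ranged from 10.97 to 17.85 (median 14.22) in TN and from 11.13 to 14.07 (median 11.67) in HS. The groups overlapped, the difference was -2.04 ± 0.99 (SE), and the exact permutation p was 0.0801 (two-sided). MTTP, which loads lipid onto apolipoprotein B, differed by -0.24 ± 0.09 (SE), and LCAT, which esterifies cholesterol in plasma, by 0.22 ± 0.10 (SE). Of the 18 genes in the apolipoprotein list 10 were lower. In the cholesterol list 14 of 22 were higher, with a median of 0.08 that was below 0 in 1 of 32 settings. Within slides the median was 0.09, 0.16, 0.30 and -0.36, with 17 of 22 genes lower on slide 5. At an unadjusted p under 0.05, 1 member was higher and 1 lower (4.55% each, against 3.26% and 4.77% of all symbols). The higher one was SCAP (escort of the sterol sensors), which differed by 0.29. GPD1, which makes glycerol phosphate, was the 1 gene of 26 in the glucose, glycogen and glycerol list with an unadjusted p under 0.05, lower by all 5 probes at -0.34 ± 0.12 (SE) for the brightest.

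**Figure D4:**
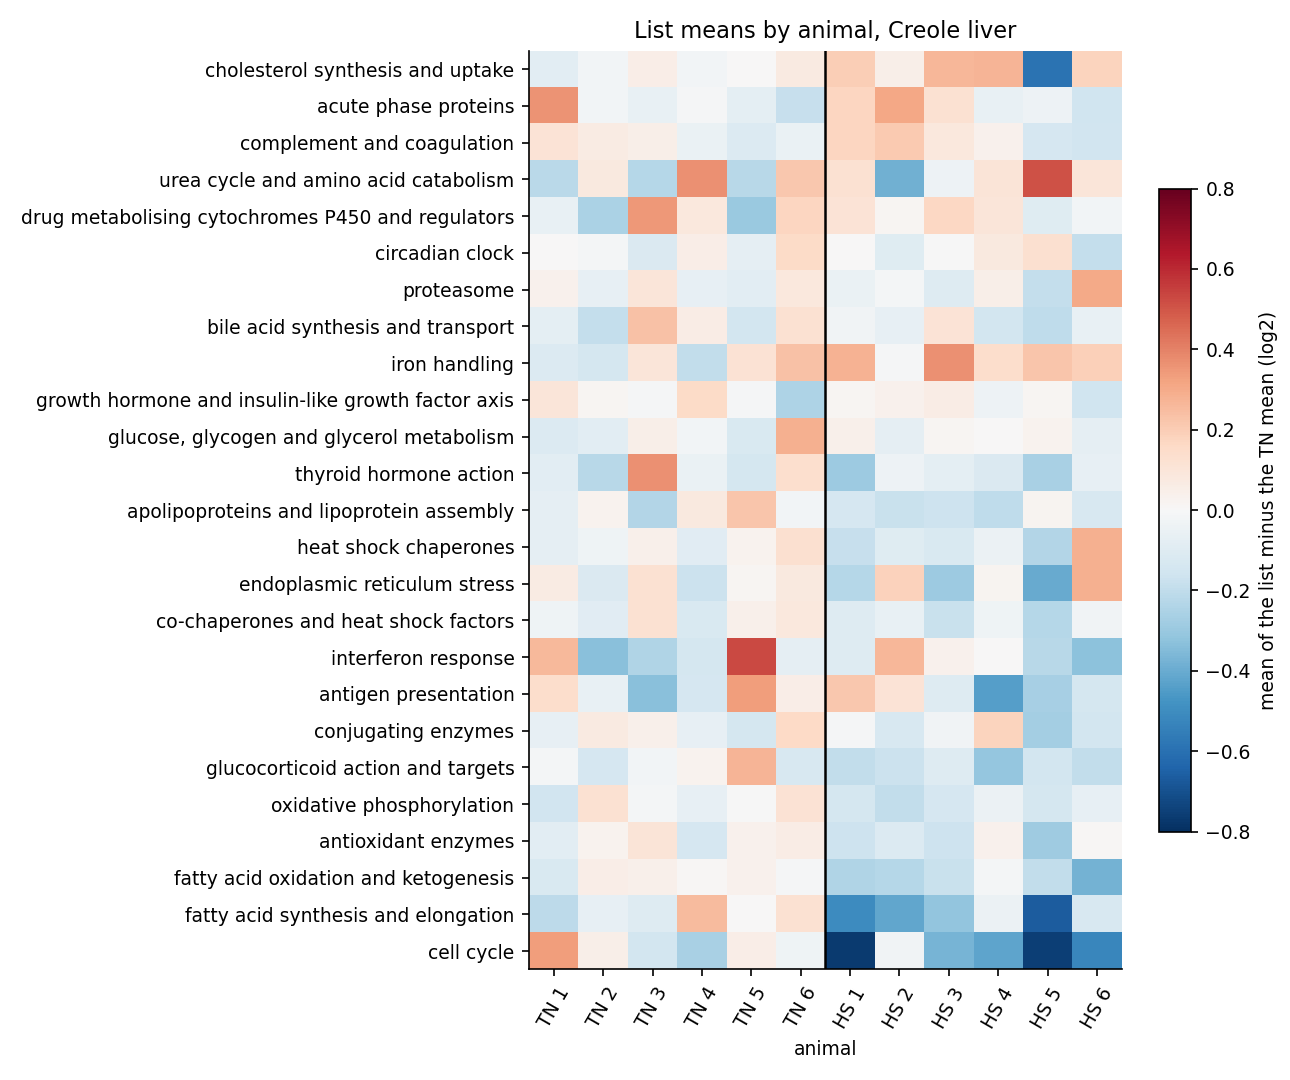
Mean of each of 25 gene lists in each Creole animal minus the mean of the 6 TN animals (log2, colour), with TN animals left and HS animals right of the line. The cell cycle mean runs from -0.77 to -0.37 in 5 HS animals and is -0.03 in HS 2.

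Thyroid hormone genes were split in direction. Of 14 measured, 3 were higher and 3 lower with an unadjusted p under 0.05 (21.4% each, against 3.26% and 4.77%), and the list median of -0.02 changed sign in 9 of 32 settings. THRA, the alpha receptor of thyroid hormone (chromosome 12, 22270506 to 22296684), ranged from 11.73 to 11.88 (median 11.85) in TN and from 11.97 to 12.61 (median 12.52) in HS. The groups did not overlap, and all 3 probes were higher with an unadjusted p under 0.05, by 0.56 ± 0.15 (SE) for the brightest (adjusted p = 0.159, and 0.0470 without HS replicate 2). DIO1, which converts the prohormone to the active form, ranged from 11.41 to 12.72 (median 11.88) in TN and from 9.65 to 11.94 (median 11.10) in HS, a difference of -1.21 ± 0.36 (SE), with 4 of 6 HS animals below every TN animal. KLF9, a transcription factor induced by both thyroid hormone and glucocorticoids, ranged from 12.10 to 13.05 (median 12.52) in TN and from 11.42 to 12.08 (median 11.80) in HS, without overlap (-0.75 ± 0.18 (SE); adjusted p = 0.136). Its 11 probes lay on 8 separate targets, and 10 were lower with an unadjusted p under 0.05. The transporter SLC16A10 differed by 0.49 and the plasma carrier SERPINA7 by 0.29, and ME1, named above, was the other lower member.

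**Figure D5:**
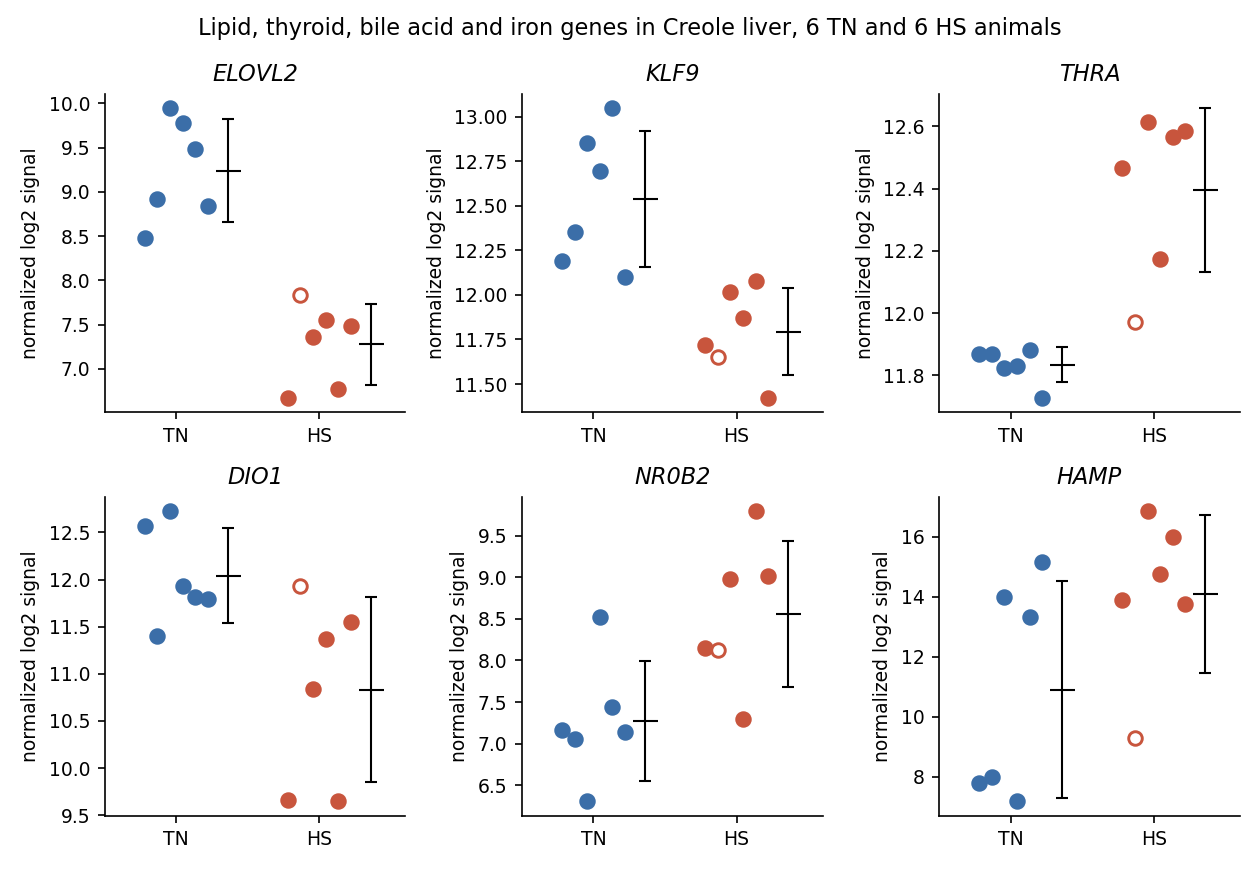
Normalized log2 signal of 6 genes in the 6 TN (blue) and 6 HS (red) Creole animals, 1 point per animal, with the mean and SD beside each group and CR HS replicate 2 as an open circle. The groups do not overlap for ELOVL2, KLF9 and THRA, and they overlap for DIO1, NR0B2 and HAMP.

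Of the glucocorticoid list 11 of 17 genes were lower, 3 of them with an unadjusted p under 0.05 (17.6%, against 4.77% of all symbols), with a median of -0.12. Besides KLF9, these were the growth arrest genes CDKN1A and GADD45A. CDKN1A, an inhibitor of cyclin-dependent kinases, ranged from 11.12 to 12.33 (median 11.98) in TN and from 9.88 to 11.66 (median 10.99) in HS, a difference of -0.92 ± 0.24 (SE). GADD45A ranged from 8.15 to 8.86 (median 8.41) in TN and from 7.998 to 8.13 (median 8.04) in HS, and the groups did not overlap (-0.42 ± 0.18 (SE)), although 1 of its 2 probes had an unadjusted p under 0.05. Both genes are known as brakes on cell division. USP2, a deubiquitinase controlled by the clock and by glucocorticoids, differed by -1.03 ± 0.28 (SE), with 5 of 6 HS animals below every TN animal, and was the 1 gene of 18 in the circadian list with an unadjusted p under 0.05.

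Heat shock chaperones lay on both sides of 0. Of 21 measured, 13 were lower and 8 higher, with 4 lower (19.0%, against 4.77% of all symbols) and 1 higher (4.76%, against 3.26%) at an unadjusted p under 0.05, and the median of -0.04 changed sign in 1 of 32 settings. HSPA8, the constitutive chaperone of the cytosol, ranged from 12.56 to 13.67 (median 13.05) in TN and from 11.61 to 13.28 (median 12.06) in HS, and the groups overlapped. The difference was -0.78 ± 0.25 (SE) (adjusted p = 0.327), beside -0.62 in LW and -0.65 in F1. HSPH1, an exchange factor for it, ranged from 8.12 to 8.87 (median 8.49) in TN and from 7.73 to 8.597 (median 7.93) in HS, a difference of -0.48 ± 0.18 (SE), and 1 of its 4 probes had an unadjusted p under 0.05. HSPB8, a small heat shock protein, differed by -0.34 ± 0.11 (SE), with all 8 probes (5 separate targets) lower at an unadjusted p under 0.05. SERPINH1, a collagen chaperone, differed by -0.33, and HSP90AB1, the constitutive HSP90, was higher by 0.25, with 1 of its 7 probes at that limit. Among co-chaperones, BAG3 (partner of HSPB8), AHSA1 (activator of HSP90) and DNAJB1 (partner of HSP70) differed by -0.71, -0.24 and -0.51, and 5 of 6 BAG3 probes had an unadjusted p under 0.05. HERPUD1 (-0.32) was the 1 of 25 endoplasmic reticulum stress genes under that limit. CR HS replicate 6 had the highest chaperone mean of the HS animals, at 0.28 above the TN mean, while the other 5 lay below it.

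Antioxidant genes were mostly lower, 26 of 31, with 5 at an unadjusted p under 0.05 (16.1%, against 4.77%) and a median of -0.14 that kept its sign under all 32 settings. HMOX1, which breaks down heme, ranged from 13.59 to 13.996 (median 13.71) in TN and from 12.90 to 13.83 (median 13.27) in HS, a difference of -0.42 ± 0.15 (SE), with 5 of 6 HS animals below every TN animal. TXN (thioredoxin) and the peroxiredoxins PRDX2 and PRDX3 differed by -0.22, -0.19 and -0.19, and GPX4, which reduces lipid peroxides, by -0.20.

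Bile acid genes held large differences in both directions. NR0B2, an orphan nuclear receptor without a DNA-binding domain that represses bile acid synthesis, ranged from 6.31 to 8.53 (median 7.15) in TN and from 7.30 to 9.79 (median 8.56) in HS. The groups overlapped, both probes were higher with an unadjusted p under 0.05, and the difference was 1.29 ± 0.43 (SE), beside -0.17 in LW and -0.32 in F1. The difference of responses was 1.54 (limma unadjusted p = 0.00639). SLC51B, a subunit of the exporter of bile acids into blood, ranged from 8.59 to 12.07 (median 9.94) in TN and from 5.90 to 9.98 (median 8.39) in HS, a difference of -1.61 ± 0.61 (SE), and the groups overlapped. ABCB4, which moves phospholipid into bile, differed by -0.54 ± 0.22 (SE). Within slides NR0B2 was higher in 3 of 4 and SLC51B lower in 3 of 4.

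HAMP (hepcidin, the hormone that lowers iron uptake) had the largest positive difference among symbols at an unadjusted p under 0.05. Its signal ranged from 7.19 to 15.16 (median 10.66) in TN and from 9.29 to 16.84 (median 14.33) in HS. Among the TN animals 3 lay between 7.19 and 7.99 and 3 between 13.33 and 15.16, while 5 of 6 HS animals lay at 13.77 or above. The difference was 3.18 ± 1.49 (SE) (adjusted p = 0.647; exact permutation p = 0.0887, two-sided), beside 3.46 in LW and 4.47 in F1. Leaving out single animals moved it between 2.44 and 4.14. Of the 18 other iron genes, TFR2, a sensor of transferrin iron, had an unadjusted p under 0.05 (0.26).

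In the growth hormone and IGF axis 1 of 19 genes was higher (5.26%, against 3.26% of all symbols) and 3 were lower (15.8%, against 4.77%) with an unadjusted p under 0.05. IGFBP2, a binding protein that rises with low feed intake, ranged from 15.01 to 15.40 (median 15.24) in TN and from 15.37 to 16.11 (median 15.64) in HS, with 5 of 6 HS animals above every TN animal and all 4 probes (2 separate targets) higher at an unadjusted p under 0.05 (0.48 ± 0.16 (SE)). In the other breeds IGFBP2 differed by 0.47 (LW) and -0.41 (F1). IGF1, the circulating growth factor, differed by -0.74 ± 0.36 (SE), and the binding proteins IGFBP6 and IGFBP7 by -0.35 and -0.25. Within slides IGF1 was lower in 2 of 4 and higher in 2, and IGFBP6 and IGFBP7 were each lower in 3 of 4. With slide as a fixed block, 1 member of the list was lower and 1 higher at an unadjusted p under 0.05. SOCS3, a brake on cytokine and growth hormone signals, was higher by 0.62.

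Genes higher in heat-stressed Creole livers with the smallest p had various functions. VWA5A, a protein with a von Willebrand A domain, ranged from 5.52 to 5.97 (median 5.82) in TN and from 6.08 to 6.85 (median 6.22) in HS, without overlap (0.53 ± 0.11 (SE); adjusted p = 0.0557). BEX2 (0.41), ADPRH (a hydrolase of ADP-ribosylarginine; 0.42), ZSCAN29 (a zinc finger protein; 0.38), SBDS (ribosome maturation; 0.23), FNTA (protein prenylation; 0.35), PAICS (purine synthesis; 0.39) and HACD3 (fatty acid elongation; 0.32) were among the 12 with the smallest p, and the HS and TN groups did not overlap for ADPRH, ZSCAN29 and SBDS. IGFBPL1 differed by 0.50 and ILDR2 by 0.26, and ILDR2 was well above background on 1 of 6 TN and 6 of 6 HS arrays. For IGFBPL1, HS replicates 2, 3 and 5 lay between 6.49 and 6.70. The other HS animals lay between 5.62 and 5.82, beside 5.54 to 5.75 in TN. Without CR HS replicate 2, VWA5A (adjusted p = 0.0115) and BEX2 (0.0123) passed the threshold. DEFB1 (a beta defensin) differed by 1.36 ± 0.37 (SE), but 1 of its 2 probes had an unadjusted p under 0.05. SLC7A2, which imports arginine, and PFN2, an actin-binding profilin, differed by 0.96 and 0.94.

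A probe named CYP3A4 by the array's design ranged from 7.53 to 8.70 (median 8.13) in TN and from 8.43 to 9.18 (median 8.94) in HS, a difference of 0.84 ± 0.20 (SE) (adjusted p = 0.120). Its name comes from a human accession and its strand was not settled, so it is given as that probe only. Among probes of the pig gene CYP3A46, a drug-metabolising cytochrome P450, A_72_P743157 differed by 0.78 and A_72_P322704 by 0.97. Both were picked after their values were seen, so they are no separate evidence for the CYP3A4 probe. In the cytochrome list 14 of 19 genes were higher, and 1 had an unadjusted p under 0.05 (NR1I2, the nuclear receptor that induces CYP3A genes; 0.23). The probe that represents CYP3A46 in that list was therefore not under this limit.

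Of the 12 lower symbols with the smallest p, those outside cell division were GCAT, which degrades threonine, TMEM132A and STX10. GCAT ranged from 12.30 to 13.03 (median 12.81) in TN and from 11.92 to 12.33 (median 12.08) in HS, with 5 of 6 HS animals below every TN animal (-0.63 ± 0.12 (SE); adjusted p = 0.0517), and within the 4 shared slides it was lower in each. TMEM132A differed by -0.58 ± 0.12 (SE) on its brighter probe and by 0.24 on the other, so its probes disagreed, and STX10, a syntaxin of endosome traffic, by -0.33 ± 0.07 (SE). Without CR HS replicate 2, GCAT (adjusted p = 0.0223), TMEM132A (0.0124) and STX10 (0.0180) passed the threshold. ABCC8, the sulfonylurea receptor, showed a split: 3 TN animals lay between 10.49 and 10.62 and 3 between 5.26 and 5.39, while HS replicate 2 was at 9.25 and the other 5 HS animals between 4.98 and 5.53. It was well above background on 4 of 6 TN and 2 of 6 HS arrays, and its difference of -2.07 ± 0.90 (SE) had an exact permutation p of 0.0844 (two-sided).

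The genes whose Creole response lay farthest from the other breeds, by unadjusted p, were compared in the same fit, and none passed. More positive in CR were the CYP3A4 probe, IGFBPL1, DPH5, QSER1 and GADD45G. For GADD45G the CR difference was 0.24, against -0.91 in LW and -0.60 in F1, and the Creole groups overlapped. More negative were STX10, OSBP, TMEM55A, SEPW1 and CCNB1. OSBP, an oxysterol binding protein, ranged from 5.74 to 5.96 (median 5.92) in TN and from 5.496 to 5.63 (median 5.60) in HS, without overlap, and differed by -0.31 in CR, -0.01 in LW and 0.08 in F1. TMEM55A was well above background on 4 of 6 TN and no HS array, so its signal was at least 1.17-fold higher in TN, taken against the lowest signal well above background on each HS array (adjusted p = 0.188). SEPW1, a selenoprotein, differed by -0.36 in CR and 0.28 in LW and -0.09 in F1.

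Within LW 2294 probes had an unadjusted p under 0.05 (5.12%; lower in HS: 2.2%), and within F1 4169 (9.31%; lower in HS: 4.73% of probes and 5.13% of symbols). The sign of the Creole differences was set beside that in each. Of 1730 probes lower in CR at an unadjusted p under 0.05, 65.2% were also lower in LW and 76.3% in F1, against 52.7% and 57.9% of all probes lower in CR. Of 1584 probes higher, 65.7% were also higher in LW and 79.2% in F1, against 52.8% and 60.2%. The breeds share slides, and the difference between these shares was not tested.

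Most of the remaining lists gave few or no members at an unadjusted p under 0.05. There were none among 28 urea cycle and amino acid genes and 29 interferon genes. The 1 acute phase gene was SOCS3, and the 2 of complement and coagulation were MASP2 (-0.43) and KNG1 (-0.29). In antigen presentation TAP2 was higher (0.27) and SLA-DRA lower (-0.47). Of 20 conjugating enzymes 14 were lower, 3 of them at that limit (15.0%, against 4.77% of all symbols), GSTZ1 (-0.18) and GSTK1 (-0.11) among them. Their list median of -0.11 kept its sign under all 32 settings. Within single slides it was -0.04, -0.07, 0.15 and -0.45, with 4 of 20 genes lower on slide 4. Of 32 proteasome genes PSME4, PSMD8 and PSMD7 were lower (-0.33, -0.15, -0.19), or 9.4% against 4.77% of all symbols. PSMC5 was higher (0.15), or 3.1% against 3.26%.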

How the data were processed

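Liver RNA of 12 Creole pigs, 6 TN and 6 HS, was analysed with the 24 other arrays of the series. The authors deposited the scanner output of each array (Feature Extraction 10.10.1.1 of Agilent, per the labels). Its deposited signals are intensity values, linear and not normalized between arrays. They also deposited a log2 table of 42051 probes with every column median at 7.66 and probes centred to a common level, so it holds differences and no levels. Its deviations correlated at 0.808 to 0.991 per array with those of the scanner signals, in the same direction, and it was used as an alternative.

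Median signals were taken to log2 and then quantile normalized over 60306 non-control spots of 36 arrays. In the methods quantile normalization comes before log2, and that order was an alternative. The 107 non-uniform spots were set missing, which affects single arrays of a probe. A probe was kept if 6 or more of 36 arrays had it well above background, which left 44796 of 60305 (74.3%). Symbols came from accessions, gene numbers and names matched to the RefSeq table of Sscrofa11.1, and 23144 kept probes carried 1 of 11210 symbols. Each symbol is represented by its kept probe with the highest mean over the 36 arrays.

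Groups were taken from the labels, and replicate numbers in accession order only name animals. A model with 1 mean per breed and temperature was fitted over 36 arrays with limma 3.58.1 in R 4.3.3 (moderated tests, two-sided, threshold 0.05 after Benjamini-Hochberg adjustment over every kept probe), with CR HS minus CR TN and its difference from the mean of the LW and F1 responses as contrasts. The SE uses the spread within all 6 groups. The random effects of pen, slaughter day and parents in the study's model are not in the labels and were not used. All tests here thus treat the animals of a group as independent, although pens and litters were shared. Exact permutation tests were two-sided over 924 splits of the 12 animals, with 0.00216 the smallest possible p, and were given for some named genes outside the 12 in each direction too. For genes these p-values are unadjusted. The genes were picked by their values or with earlier results of these data known, so the p-values are no separate support. Arrays lay on 5 slides, and 4 held both CR groups. The number of arrays limits the precision.

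Genes were named by rule: the 12 smallest p in each direction, the 5 largest differences in each direction at an unadjusted p under 0.05, up to 4 members of each of 25 pathway and 10 marker lists at that limit, the 5 smallest p in each direction for the breed contrast, and HAMP, HSPH1, HSPA8, ELOVL2, KLF9, USP2 and ADPRH. Other genes of the lists, and the CYP3A46 and PDZK1IP1 probes, were named after their values were seen. The lists and the genes named outright were chosen with earlier results of these data known. Of the 93 genes named by rule, 2 are not reported here. The script was tested on simulated data. The alternatives were other background, normalization and filter settings, slide blocks, CR arrays alone, array weights, a trended spread, 1 value per gene, and leaving out each CR array and each slide.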

Additional observations from a re-analysis of the deposited data

Results flagged for a closer look

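In 264 checks of 91 named genes, 6 array measures and 35 list means in both Creole groups, 14 had 1 animal apart from the other 5, meaning that its gap to the nearest other animal divided by the range of the group was above Dixon's critical value for 6 samples. Chance gives about 1 in 20, or 13.2 of 264, so the number is near that background. The 14 lay on 9 of 12 arrays.

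Among genes, ABCC8 was highest in CR HS replicate 2 (0.871) and KNG1 highest in CR TN replicate 2 (0.658). The lowest animal stood apart for TFR2 in CR HS replicate 6 (0.810), ADPRH and THRA in CR TN replicate 6 (0.725 and 0.638), FNTA in CR HS replicate 3 (0.694), ETFB in CR HS replicate 5 (0.656) and HSPB8 in CR TN replicate 4 (0.631). Among list means, CR HS replicate 5 was lowest for cholesterol synthesis and uptake (0.739) and highest for apolipoproteins and lipoprotein assembly (0.685). CR TN replicate 1 was highest for acute phase proteins (0.673) and lowest for fatty acid oxidation and ketogenesis (0.671). The heat shock chaperone mean was highest in CR HS replicate 6 (0.647), and the macrophage mean was lowest in CR TN replicate 3 (0.692). CR HS replicate 2, whose absence moved the count of probes past the threshold from 0 to 113, accounted for 1 of the 14.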

How the results depend on the processing

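The count of probes past the threshold within CR was 0 with all arrays. It was 0 with the processed signal, normexp background correction, quantile normalization before log2, slide as a fixed or a random block, the 12 CR arrays alone (normalized alone or with the rest) and a trended robust spread. It was 5 with the authors' log2 table, 7 with probes that 6 or more of 12 CR arrays had well above background, 8 with no filter on dim probes, 17 with probes well above background on all 12 CR arrays, 13 with array weights, 12 (of 11210) with 1 value per gene and 42 without slide 3. Leaving out single animals gave 0 to 113. Leaving out CR HS replicate 2 with slide as a fixed block, chosen after seeing the data, gave 50, of which 49 were among the 113. The cause was not tested. Filters that keep fewer features adjust over fewer p-values. The count for the CR response against the other breeds was 0 under every setting with those breeds in the fit.

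Of 2972 values of the 93 named genes under 32 alternatives, 1 changed sign, TAP2 with 1 value per gene (-0.0089), and 86 values of 20 genes passed the threshold. Of 1120 list medians, 1115 moved by less than the SD between animals. The cell cycle median with the processed signal was -0.80. The hepatocyte median with the authors' table was -0.04, the adipocyte and muscle median with 1 value per gene -0.05, the circadian median without slide 5 0.14 and the glucocorticoid median without CR HS replicate 2 and with a slide block -0.27. The median of all features shifted most with 1 value per gene, by -0.011. No paired analysis was possible because the labels carry no replicate numbers shared between groups.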

Other observations

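The 47 symbols whose representative probe passed the threshold without CR HS replicate 2 (0.419% of 11210), chosen after their values were seen, included 44 that were lower in HS (0.393%). Besides the genes above, they held KIF4A (-1.22 without that animal) and KIFC1 (-1.05), which are mitotic motors, NCAPD2 (-0.49) and NCAPH (-0.68), which condense chromosomes, RACGAP1 (-0.79), the partner of KIF23, and ESPL1 (-0.93), the separase that PTTG1 holds in check. TACC3 (-0.76), SPAG5 (-0.88) and INCENP (-0.43) act at the spindle. The 3 that were higher were VWA5A, BEX2 and THRA.

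The probes O10733 and its companion for PDZK1IP1, a small membrane protein, disagreed. O10733 had means of 6.78 ± 0.67 (TN) and 8.71 ± 1.65 (HS; SD, n = 6) and differed by 1.92 (limma adjusted p = 0.0796), whereas the brighter probe that represents the symbol differed by -0.08. Of the 7 probes at the smallest adjusted p, 2 have no symbol here: A_72_P064136 was higher by 0.46 and A_72_P305179 lower, at -0.81.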
